A study of Mus musculus with 5 samples.

Results

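Messenger RNA of the cytosolic ribosomal protein genes and their paralogs was followed across 5 one-colour expression arrays of mouse embryonic stem (ES) cells and cells derived from them. The members were taken by gene symbol: Rpl or Rps followed by a digit, Rplp followed by a digit, or Rpsa, leaving out the Rps6k kinases, with the brightest probe kept for each gene. This gave 60 genes of the 16032 genes named on the array, read by 63 probes of 22871. They comprised 53 core ribosomal protein genes (20 of the small and 33 of the large subunit), 3 paralogs known for restricted tissue expression (Rps4l, Rpl39l and Rpl3l), 3 other paralogs (Rpl22l1, Rpl7l1 and Rps27l) and Rps19bp1, which encodes a binding partner of Rps19 and not a ribosomal protein. Of the 60 genes, 57 carried the symbol on the platform, and Rps4l, Rpl39l and Rpl34 were reached after older platform symbols were updated. All 60 had a value on every array. Members not named on this array, among them Rplp0, Rplp2, Rpl3 and Rps6, were not analysed here.

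All 5 arrays came from feeder-free ES cells of the E14tg2a line (129 strain, male) that express a fusion of myristoylated Akt with a modified estrogen receptor (Mer), so that the kinase is switched on by 4-hydroxytamoxifen (4OHT). Line 21 ES cells were measured once without 4OHT and once with 4OHT at 1 µM. Akt-spheres, which the series calls primordial germ cell-like, were measured once from line 21 and once from line 42. They arose on OP9 stromal cells under a differentiation protocol for blood, with 4OHT begun 3 days before induction, and were passaged every 4 days. The stroma was depleted by plating for 30 min before RNA was taken. ES-like cells that had reverted from line 21 spheres, after a transient 4OHT treatment on embryonic fibroblasts, gave the last array. Each line is a single ES line, no array of line 42 ES cells was used here, and all cells, the controls included, carry the fusion. The ES cells without 4OHT, the ES cells with 4OHT and the reverted cells are called ES-type arrays below.

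Ribosomal proteins assemble with ribosomal RNA in the nucleolus into the small and the large ribosomal subunit, and most cells make them in near-equal amounts from abundant mRNAs. These mRNAs begin with a pyrimidine-rich tract (TOP) through which mTOR, a kinase downstream of Akt, controls their translation, so that much of their regulation does not show in mRNA levels. A few ribosomal proteins have a paralog copy with narrower expression. Rpl39l is known from the testis, where it replaces Rpl39 in the exit tunnel of ribosomes of male germ cells, and Rpl3l is known from heart and skeletal muscle, where it takes the place of Rpl3. Rps4l is related to the X-linked Rps4x and is listed by RefSeq as a transcribed pseudogene, so its mRNA is named here without a claim about a protein.

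Values are the deposited intensities, linear and of arbitrary scale, with a median near 50 on each array. The core probes took 9.17% to 10.0% of the summed intensity of an array. Probe sequences were not used here, so which copies of a ribosomal protein gene, processed pseudogenes included, a probe also reads was not tested. In these bulk samples, fewer cells of a type and less RNA per cell cannot be told apart. The labelled cell types were checked on markers. The summed intensity of 8 ES cell markers was 87854 to 101708 on the ES-type arrays and 11153 and 15460 in line 21 and line 42 spheres. For 8 primordial germ cell markers it was 1489 to 3664 on the ES-type arrays and 3499 and 12636 in the spheres. These 8 did not move together: 3 had a log2 difference below 0 in spheres against ES-type arrays and 5 above. Their median intensity was 146 to 239 on the ES-type arrays, 218 in line 21 spheres, inside that range, and 326 in line 42 spheres. For 15 markers of OP9 stroma and fibroblasts the summed intensity was 1207 to 2207 on the ES-type arrays, highest in the reverted cells, and 1111 and 523 in the spheres. These did not move together either: of the 11 that were tested, 6 had a log2 difference below 0 in spheres against ES-type arrays and 5 above. For 4 blood markers the summed intensity stayed between 74.0 and 125 on all arrays. Every marker had a value on every array, and none was at 0, but many were dim. The median intensity was 17.0 to 29.7 for the OP9 and fibroblast list and 12.6 to 27.95 for the blood list. These medians lay near or below the 40th percentile of an array (28.6 to 29.3). The part of these marker differences in the results below was not tested.

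Rps4l had the largest difference of all members between spheres and ES-type arrays. Its intensity was 15508 in ES cells without 4OHT, 15352 with 4OHT and 11316 in reverted cells, against 38.1 in line 21 spheres and 996 in line 42 spheres. Both spheres thus lay below all 3 ES-type arrays. The distance from the ES-type mean was 348-fold in line 21 and 14.2-fold in line 42. The line 21 value was dim, near the 40th percentile of its array (29.2), so the 348-fold is imprecise. The log2 difference of the spheres from the ES-type arrays was -6.14 ± 1.25 (SE; 2 against 3 arrays), the lowest of all 10589 genes tested, with an adjusted p of 0.0685 in limma. That p misses the threshold of 0.05. Without line 21 spheres the difference was -3.83 with a limma adjusted p of 0.0248, and without line 42 spheres it was -8.44 with 0.0100; in both cases 1 sphere array stood against 3 and was assumed to vary as the ES-type arrays do, so these p-values hold no spread between spheres. Over all alternatives the adjusted p ranged from 0.0100 to 0.231. The probe of Rps4x, the constitutive X-linked gene, read 57062, 49266 and 55450 on the ES-type arrays (in the order given above) and 49936 and 45025 in line 21 and line 42 spheres. Its log2 difference of -0.18 (limma adjusted p = 0.741) puts the difference of the paralog minus that of its relative at -5.96.

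Rpl39l was the other restricted paralog with large differences. It read 7387 in ES cells without 4OHT and 11706 with 4OHT, but 208 in reverted cells, 33.7 in line 21 spheres and 1528 in line 42 spheres. The reverted array lay between the spheres, so spheres and ES-type arrays overlapped. Against ES cells without 4OHT the paralog was 220-fold lower in line 21 spheres, 5.18-fold lower in line 42 spheres and 37.9-fold lower in reverted cells. Against ES cells with 4OHT the sphere lines were 317-fold and 7.47-fold lower. The line 21 folds rest on a dim value near the 40th percentile of that array (29.2) and are imprecise. Against the 3 ES-type arrays together the log2 difference was -3.51 ± 2.22 (SE; 2 against 3 arrays) with an adjusted p of 0.458 in limma. Its constitutive counterpart Rpl39 read 11323, 12732 and 9949 on the ES-type arrays and 6826 and 6835 in line 21 and line 42 spheres. Both spheres lay below every ES-type array for Rpl39, with a log2 difference of -0.72 ± 0.23 and an adjusted p of 0.171 in limma.

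Rps4l and Rpl39l differed in the reverted cells. Relative to ES cells without 4OHT, the reverted array had Rps4l at -0.55 and Rpl39l at -5.24 on the log2 scale, without a replicate. With 4OHT alone the same values were -0.15 and 0.53. Line 42 spheres read 24.6-fold more Rps4l and 42.5-fold more Rpl39l than line 21 spheres, both over dim line 21 values. For Rpl39l, line 21 spheres lay 5.81-fold below and line 42 spheres 7.31-fold above the reverted cells, and the mean of the spheres, 0.17 log2 units above, stands for neither line.

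Rpl3l was dim throughout. Its intensities of 11.3, 13.6 and 6.57 on the ES-type arrays and of 23.3 and 32.3 in line 21 and line 42 spheres lay close to the detection floor, and only the line 42 value exceeded the 40th percentile of its array, which was 28.6 to 29.3 over the arrays. Both spheres lay above all ES-type arrays. The gene was tested only because of that line 42 value, and its size hung on the pseudocount: the log2 difference was 1.36 with a pseudocount of 1 and 0.73 with 16, and it passed limma's threshold with neither (adjusted p of 0.119 and 0.154).

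**Figure D1:**
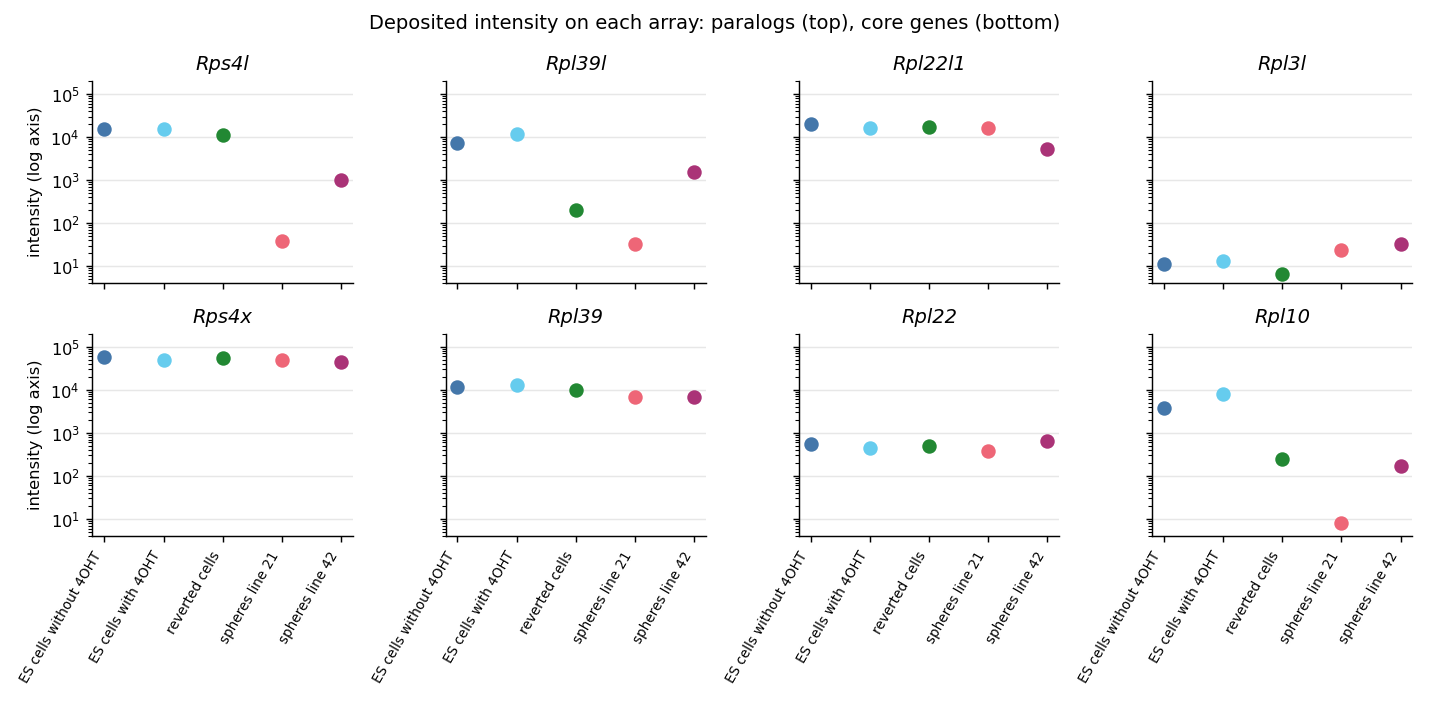
Deposited intensity (log axis) of 4 paralogs in the upper panels and 4 core genes in the lower panels, with 1 point for each of the 5 arrays. Rps4l and Rpl39l read 38.1 and 33.7 in line 21 spheres, where Rps4x and Rpl39 read 49936 and 6826, and Rpl22l1 is lowest in line 42 spheres.

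Among the other paralogs, Rpl22l1 stood apart by line. It read 20207, 16047 and 17037 on the ES-type arrays and 16140 in line 21 spheres, but 5394 in line 42 spheres. The line 42 value was 3.33-fold below the ES-type mean, whereas the line 21 value lay inside the range of the ES-type arrays. The overall log2 difference was -0.92 with an adjusted p of 0.382 in limma. Rpl22, whose protein is known to repress Rpl22l1, read 559, 447 and 482 on the ES-type arrays, 373 in line 21 spheres and 638 in line 42 spheres. Line 42 spheres thus had the highest Rpl22 and the lowest Rpl22l1 of the 5 arrays, at log2 differences from line 21 spheres of 0.72 and -1.63. The remaining arrays did not show opposite orders. The ES-type array with the highest Rpl22l1 (20207) also had the highest Rpl22 among the ES-type arrays (559). Line 21 spheres had the lowest Rpl22 (373), with Rpl22l1 inside the ES-type range (16140). A link between Rpl22 and Rpl22l1 was not tested.

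Rpl7l1 and Rps27l varied little. Rpl7l1, a relative of Rpl7, read 1579, 1830 and 1565 on the ES-type arrays and 1087 and 1406 in line 21 and line 42 spheres, a log2 difference of -0.42 (limma adjusted p = 0.392). Rpl7 itself was at -0.09. Rps27l, a p53-responsive relative of Rps27, read 17971, 22935 and 19380 on the ES-type arrays and 14177 and 16138 in the spheres, with a log2 difference of -0.40 (limma adjusted p = 0.392), close to the -0.33 of Rps27. For both paralogs the spheres lay below all ES-type arrays. Rps19bp1, the binding partner of Rps19 that also acts as a regulator of the deacetylase Sirt1, read 3125, 4779 and 2853 on the ES-type arrays, 1580 in line 21 spheres and 3340 in line 42 spheres, with overlap and a log2 difference of -0.60 (limma adjusted p = 0.472).

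Rpl10 was the one core gene with differences of the size seen in the paralogs. Its protein joins the large subunit late in assembly and lies near the catalytic centre. The probe read 3696 in ES cells without 4OHT, 7892 with 4OHT, 241 in reverted cells, 8.24 in line 21 spheres and 171 in line 42 spheres. Both spheres lay below all ES-type arrays, with reverted cells next above them. The distance from the ES-type mean was 11.3-fold in line 42. For line 21 no fold is given, since 8.24 lies below the 40th percentile of that array (29.2). The log2 difference was -5.58 ± 1.79 (SE; 2 against 3 arrays) with the dim line 21 value taken as it stands, and its adjusted p of 0.175 in limma does not pass the threshold. In the reverted cells the same probe was 16.4-fold below ES cells without 4OHT. Line 42 spheres lay 4.17 log2 units above line 21 spheres, again with the dim line 21 value taken as it stands. The order of the arrays, with ES cells with 4OHT highest and line 21 spheres lowest, was the one seen for Rpl39l except that line 42 spheres and reverted cells changed places.

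To set the start sites of these genes side by side, 160 bases around the annotated start (130 before and 30 after it, 5′ to 3′ on the strand of the gene) are shown for Rpl39l, for its counterpart Rpl39, for Rpl10 and for Rpl22l1, from RefSeq on GRCm38.p6. They lie at chr16:10170098-10170257 on the plus strand, chrX:37085193-37085352 on the minus strand, chrX:74270686-74270845 on the plus strand and chr3:28805378-28805537 on the plus strand. Capitals mark CCGGAAG, the core recognised by ETS factors, or its complement CTTCCGG, and TATAAA, the letters of a TATA box. Matches are marked at any distance from the start, and that of Rpl39 lies much further before it than that of Rpl22l1.
Rpl39l: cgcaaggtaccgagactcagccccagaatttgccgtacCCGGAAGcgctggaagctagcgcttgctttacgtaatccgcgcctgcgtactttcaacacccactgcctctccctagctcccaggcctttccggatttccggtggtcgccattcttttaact
Rpl39: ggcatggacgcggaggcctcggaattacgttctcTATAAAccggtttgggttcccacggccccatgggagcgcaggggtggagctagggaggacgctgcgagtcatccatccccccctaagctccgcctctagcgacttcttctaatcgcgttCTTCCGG
Rpl10: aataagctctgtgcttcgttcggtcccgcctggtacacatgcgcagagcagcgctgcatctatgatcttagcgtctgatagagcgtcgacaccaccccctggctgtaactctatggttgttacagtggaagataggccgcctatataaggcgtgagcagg
Rpl22l1: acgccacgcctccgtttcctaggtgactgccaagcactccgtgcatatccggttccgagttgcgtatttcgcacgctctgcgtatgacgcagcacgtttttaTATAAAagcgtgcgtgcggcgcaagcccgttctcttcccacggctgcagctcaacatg

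The Rpl39l window shown holds CCGGAAG and no TATAAA, the Rpl39 window holds both kinds of match, the Rpl22l1 window holds TATAAA alone and the Rpl10 window holds neither. Such matches describe the letters and are no evidence of a bound factor. Over windows of 300 bases (250 before to 50 after the start), 48 of the 60 members could be matched, 42 of them core genes. CCGGAAG on either strand was found for 20 of these 42 core genes (47.6%) against 9.93% of 27018 genes with such a window. A run of at least 8 pyrimidines on the gene's own strand within 25 bases of the start was found for 24 core genes (57.1%) against 22.3% of all genes. Such a run may lie before or after the start, so it need not be the tract with which a TOP mRNA begins. TATAAA on the gene's strand was found for 1 core gene (2.38%) against 9.77%. GGGCGG, bound by SP1, was found on either strand for 24 (57.1%) against 38.2%, and AAGATGGC, the YY1 core, for 5 (11.9%) against 3.19%. The core windows held a median of 21 CpG dinucleotides against 7 over all windows.

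The 53 core genes as a group lay slightly lower in the spheres. Their median log2 difference from the ES-type arrays was -0.29 (quartiles -0.44 and -0.05), a fold of 0.815, and 46 of 53 lay below 0, while over all 10589 genes tested the median was 0.00 and 49.9% lay below 0. The small subunit had a median of -0.25 (17 of 20 below 0) and the large subunit one of -0.32 (29 of 33). The size depended on the sphere line and on the scaling: the median was -0.36 in line 21 and -0.14 in line 42, and after quantile normalization it was -0.052 with 32 of 53 genes below 0. Bright probes in general also lay lower: of the 146 genes with a mean intensity of at least 10000, 110 (75.3%) were below 0, with a median of -0.19, and of the 34 core genes among them 32 were, with a median of -0.28.

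No core gene passed limma's threshold in spheres against the ES-type arrays, where 2.44% of all genes tested were called (258 of 10589, 0.963% higher and 1.47% lower). At an unadjusted p under 0.05, limma gave 5 core genes (9.43%), namely Rpl10, Rpl17, Rpl21, Rpl39 and Rps16, against 2002 of all genes (18.9%), and the lowest adjusted p of a core gene was 0.149. The total of 258 called genes rests on few arrays: it was 0 without ES cells without 4OHT, 32 without ES cells with 4OHT, 98 without line 42 spheres and 148 without line 21 spheres. By the other rule, a difference of 2-fold or more in the same direction in line 21 and in line 42, Rpl10 was the single core gene, against 9.05% of all genes (3.83% higher and 5.21% lower). Of the core genes, 43 of 53 (81.1%) lay within 1.5-fold, against 68.7% of all genes and 81.5% of the 146 bright genes. The intensities of 15 core genes (28.3%) were lower in both spheres than on all ES-type arrays, against 18.2% of all genes, and those of 1 core gene, Rps15a, were higher, against 18.5% of all genes.

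After Rpl10, the lowest log2 differences of core genes were those of Rps24, Rpl13a, Rpl17 and Rpl21. Rps24, a small-subunit protein mutated in Diamond-Blackfan anemia, read 921, 1004 and 619 on the ES-type arrays, 310 in line 21 spheres and 697 in line 42 spheres. It overlapped, since line 42 spheres exceeded the reverted cells, and its log2 difference was -0.83 (limma adjusted p = 0.347). Rpl13a, which also serves in a complex that represses translation of inflammatory mRNAs, read 13100, 13174 and 5316 on the ES-type arrays and 4071 and 7464 in the spheres. It overlapped in the same manner, at -0.81 (limma adjusted p = 0.450). Rpl17 and Rpl21, both of the large subunit, had dim probes: Rpl17 read 113, 91.9 and 89.7 on the ES-type arrays and 68.2 and 44.7 in the spheres. Rpl21 read 128, 113 and 117 on the ES-type arrays and 63.7 and 74.0 in the spheres. For both, the spheres lay below all ES-type arrays, with log2 differences of -0.81 (limma adjusted p = 0.228) and -0.78 ± 0.23 (limma adjusted p = 0.149).

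At the other end stood Rpl29, Rps15a, Rps25, Rpl32 and Rps21. Rpl29 read 304, 364 and 382 on the ES-type arrays, 350 in line 21 spheres and 570 in line 42 spheres, a log2 difference of 0.36 (limma adjusted p = 0.550) that came from line 42. Rps15a read 985, 1000 and 1147 on the ES-type arrays and 1174 and 1205 in the spheres, which lay above all ES-type arrays by little, at 0.20 (limma adjusted p = 0.695). Rps25, Rpl32 and Rps21 had log2 differences of 0.16, 0.15 and 0.11 with overlapping arrays, and none was called by limma. Rpl41, the smallest ribosomal protein, read between 99970 and 116966 on all 5 arrays, with a log2 difference of -0.01.

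The stalk and surface proteins were of the same order. Rplp1, of the acidic stalk that recruits elongation factors, read 29914, 33975 and 24623 on the ES-type arrays and 22396 and 25377 in the spheres, at a log2 difference of -0.29 with overlap (limma adjusted p = 0.585). Rpsa, a small-subunit protein also known as a laminin receptor, read 1954, 2189 and 2330 on the ES-type arrays and 1508 and 1662 in the spheres, at -0.44 without overlap (limma adjusted p = 0.336).

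**Figure D2:**
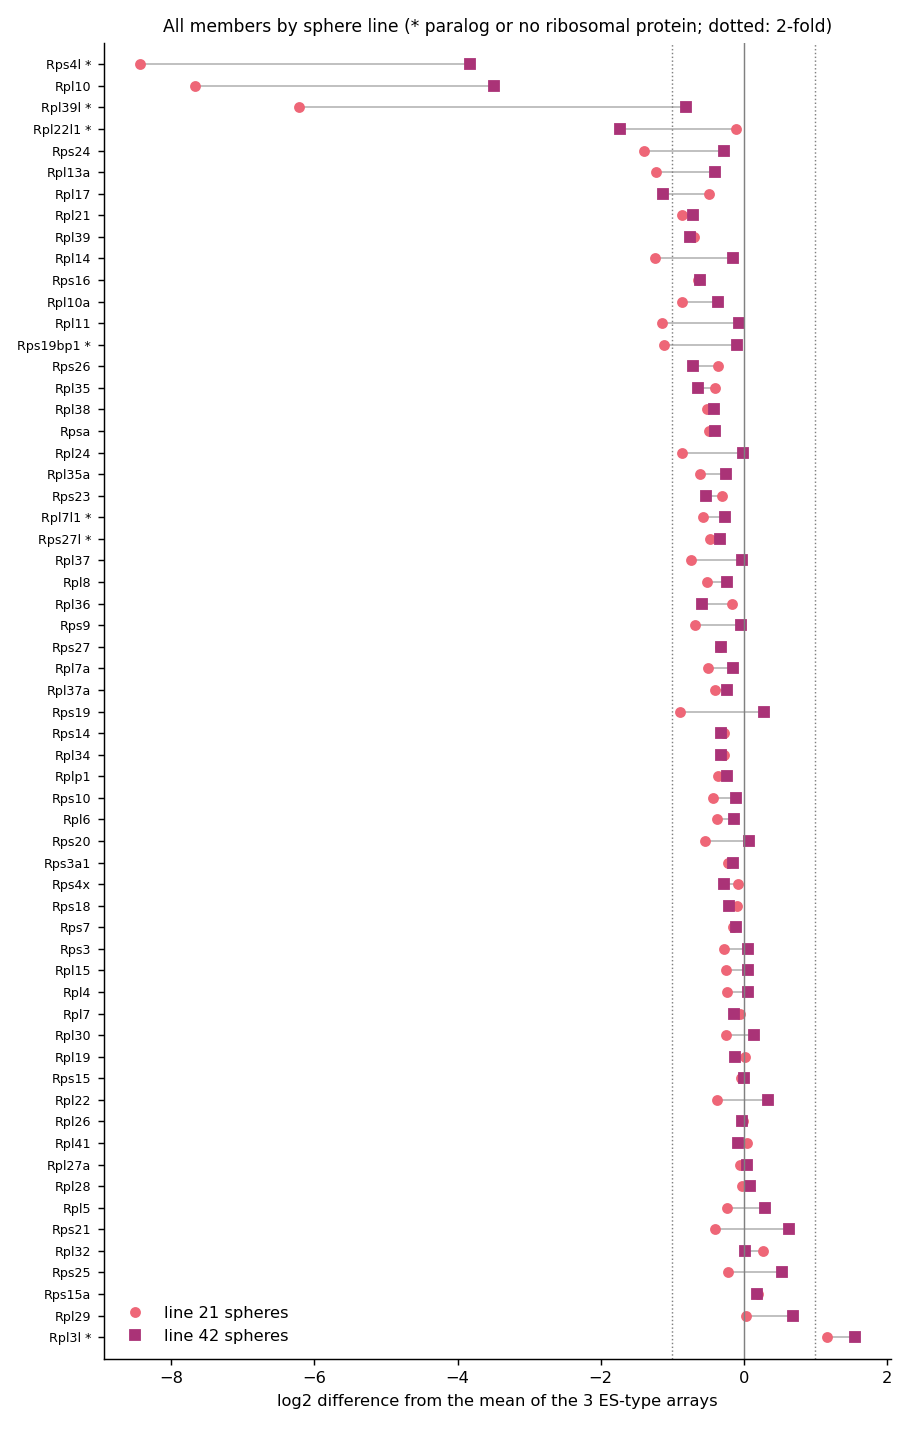
Log2 difference of line 21 spheres (circles) and line 42 spheres (squares) from the mean of the 3 ES-type arrays for each of the 60 members, sorted by the mean of both lines, with dotted lines at 2-fold. Rps4l (-8.44 and -3.83) and Rpl10 (-7.67 and -3.50) lie beyond 2-fold on the low side in both lines, 8 other members, Rpl39l and Rpl22l1 among them, in 1 line each, and Rpl3l beyond it on the high side in both.

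Most core genes had their highest value in ES cells without or with 4OHT, and the split between these depended on the centring. Of the 53, 37 had their highest centred value without 4OHT and 9 with 4OHT, whereas of the intensities as deposited 23 were highest without and 19 with 4OHT. Line 21 spheres held the lowest centred value for 27 genes and the lowest deposited value for 32. Relative to ES cells without 4OHT, the median log2 difference was -0.16 with 4OHT (40 of 53 lower), -0.36 in reverted cells (49), -0.48 in line 21 spheres (50) and -0.34 in line 42 spheres (46). Of the 146 bright genes, 63% were lower with 4OHT and 84.2% in reverted cells on the centred values. As deposited, 28 of 53 core genes were lower with 4OHT, 47 in reverted cells, 50 in line 21 spheres and 41 in line 42 spheres. These comparisons share the same control array, and under quantile normalization 28 of 53 genes were lower with 4OHT and 28 in reverted cells, so the small shifts depend on the scaling. Within a gene the spread was narrow: the ratio of the highest to the lowest of the 5 arrays had a median of 1.62 over the core genes and 1.96 over all genes tested, and it was under 2 for 40 core genes (75.5%) against 51.6% of all genes and 75.3% of the 146 bright genes.

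**Figure D3:**
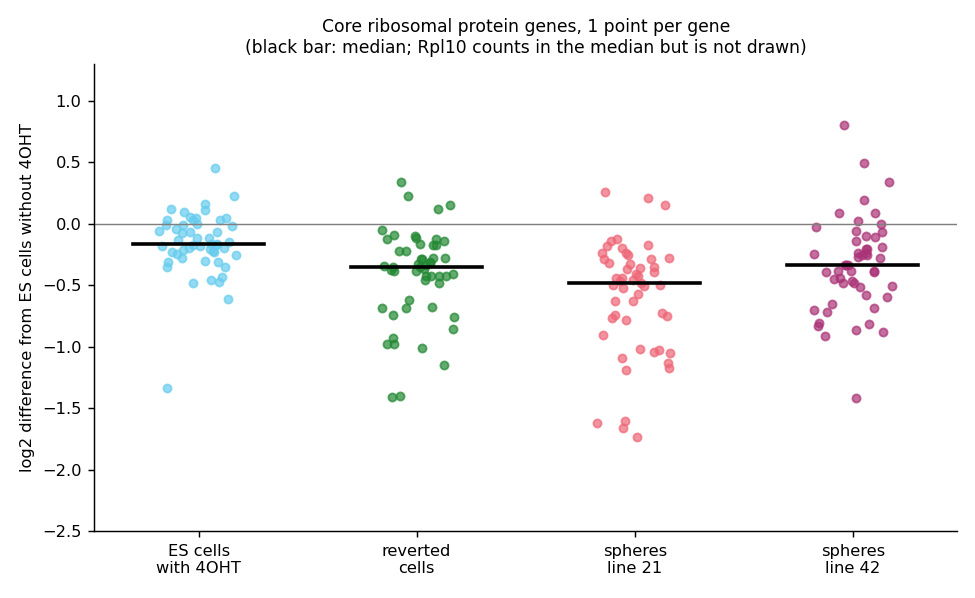
Log2 difference of each core gene from ES cells without 4OHT on the other 4 arrays (1 point per gene, black bar for the median of all 53 genes, Rpl10 not drawn). The medians are -0.16 with 4OHT, -0.36 in reverted cells, -0.48 in line 21 spheres and -0.34 in line 42 spheres.

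ES cells with and without 4OHT, the ligand of the Akt fusion, had similar values for most core genes. With 1 array on each side there was no replicate check. With the spread borrowed from the sphere lines, limma called 0 of 9852 genes (lowest adjusted p = 0.9999, 147 genes at an unadjusted p under 0.05). Of 53 core genes, 50 (94.3%) lay within 1.5-fold, against 82.8% of all genes, and the median was -0.16 against -0.03 over all genes. The 146 bright genes were close to the core genes, with 92.5% within 1.5-fold and a median of -0.12. At least 2-fold apart was 1 core gene, against 4.95% of all 9852 genes compared (2.56% higher and 2.4% lower): Rps21, a small-subunit protein, read 502 without and 218 with 4OHT, a log2 difference of -1.34. Without centring of the arrays, 28 of 53 core genes were lower, the median of all genes was 0.11 higher with 4OHT, and Rpl10 joined Rps21 among the genes 2-fold apart.

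Spheres were next set against each ES-type condition in turn, again with both lines. Against ES cells without 4OHT the core median was -0.44 with 48 of 53 below 0. Of all genes 49.8% lay below 0, and of the 146 bright genes 85.6%, with a median of -0.32 for the bright genes. Rpl10 was the only core gene at least 2-fold lower in both lines, against 10.5% of all genes in either direction (4.51% higher and 6.01% lower). In line 21 spheres alone 13 core genes were 2-fold lower, against 12.2% of all genes: Rpl10, Rps24, Rpl13a, Rpl21, Rpl14, Rpl10a, Rpl11, Rpl24, Rpl35a, Rpl37, Rps9, Rps19 and Rps21. In line 42 spheres alone these were Rpl10 and Rpl17, against 10.3% of all genes. The line 21 values of Rpl10 and Rpl37 lay below the 40th percentile of that array (29.2), so the line 21 folds of both genes are imprecise. Under quantile normalization the median was -0.10 with 32 below 0. limma, with 1 residual degree of freedom, called 0% of all genes (964 had an unadjusted p under 0.05, of them 1 core gene), and the lowest adjusted p was 0.183.

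Against ES cells with 4OHT, the condition that shares the active fusion with the spheres, the core median was -0.38 with 38 of 53 below 0, and without line 21 spheres it was -0.19. Of all genes 48.5% lay below 0, and of the 146 bright genes 70.5%, with a median of -0.20 for the bright genes. Rpl10 was again the only core gene 2-fold lower in both lines, against 12.8% of all genes in either direction (5.98% higher and 6.86% lower). It was also the only one at least 2-fold lower in line 42 spheres (10.9% of all genes), and in line 21 spheres 7 core genes were (13.5% of all genes). Rps21 was at least 2-fold higher in line 42 spheres (9.76% of all genes). Under quantile normalization the median was -0.12 with 33 below 0. Again limma called 0% of all genes (lowest adjusted p = 0.152, with 1212 genes at an unadjusted p under 0.05).

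Against the reverted cells the core genes were balanced. The median was -0.02 with 27 of 53 below 0, made of -0.18 in line 21 and 0.09 in line 42. No core gene was 2-fold apart in both lines, against 10% of all genes (4.21% higher and 5.81% lower). In line 21 spheres alone Rpl10 was 2-fold lower (9.09% of all genes) and in line 42 spheres alone no core gene was (11.4%), and limma called 0% of all genes (lowest adjusted p = 0.220, with 920 genes at an unadjusted p under 0.05). Rps4l remained far lower in both lines than in the reverted cells, by 279-fold and 11.4-fold, without a call (limma adjusted p = 0.522).

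The reverted cells themselves lay below ES cells without 4OHT for 49 of 53 core genes, in a comparison of single arrays. So did 49.9% of all genes and 84.2% of the 146 bright genes. The median log2 difference was -0.36 for the core genes and -0.28 for the bright genes. At least 2-fold lower were 5 core genes and none was 2-fold higher, against 11.5% of all genes in either direction (5.18% higher and 6.34% lower). Besides Rpl10 at -4.04 they were Rpl13a at -1.40, Rpl11 at -1.40, Rpl35a at -1.15 and Rpl38 at -1.01 on the log2 scale. Rpl11, which with Rpl5 binds and inhibits Mdm2, read 36399 without and 35715 with 4OHT, 14733 in reverted cells, 11880 in line 21 spheres and 25884 in line 42 spheres. Rpl35a, a large-subunit protein mutated in Diamond-Blackfan anemia, read 43017, 45149, 20746, 21927 and 29317 in the same order, and Rpl38, known for its part in the translation of Hox mRNAs, read 869, 840, 461, 479 and 531. For Rpl11, Rpl35a and Rpl38 the reverted array lay nearer to the spheres than to the ES cells. They had been picked for a reverted value at least 2-fold below ES cells without 4OHT, which favours that order. Under quantile normalization Rpl10 and Rpl13a were 2-fold lower, the median was -0.033 and 28 of 53 genes were lower.

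The sphere lines differed from each other at Rpl10 and at a few core genes of moderate size. Line 42 spheres were at least 2-fold above line 21 spheres for 6 core genes and 2-fold below for none, against 15.7% of all genes in either direction (7.87% above and 7.81% below). These were Rpl10 at 4.17 (over the dim line 21 value), Rps19 at 1.18, Rps24 at 1.11, Rpl14 at 1.09, Rpl11 at 1.07 and Rps21 at 1.03 on the log2 scale. Rps19, the gene most often mutated in Diamond-Blackfan anemia, read 365 in line 21 and 856 in line 42 spheres, against 501 to 886 on the ES-type arrays. Rpl14, of the large subunit, read 817 and 1806, against 1677 to 2407. In both cases the line 42 value lay within the range of the ES-type arrays and the line 21 value below it. The core median was 0.16 with 37 of 53 genes above in line 42, and under quantile normalization 22 of 53 were below. Over all genes, 5187 of 9954 lay above. The difference lay mostly in the dimmer core probes. The 34 core genes with a mean intensity of at least 10000 had a median of 0.06, with 21 above and 1 of them 2-fold. The 19 dimmer core genes had a median of 0.65, with 16 above and 5 of them 2-fold. Line and culture cannot be told apart with 1 array for each line.

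The rest of the translation machinery was read from gene lists, some of which share members. In spheres against the ES-type arrays, the other TOP mRNAs resembled the core genes in size: 9 of 12 lay below 0 with a median log2 difference of -0.30, among them Eef1b2 at -0.55 and Pabpc1, the poly(A)-binding protein, at -0.35, while Eef1a1, the elongation factor that delivers tRNA, was at 0.01. Elongation and termination factors had a median of -0.27 (7 of 9 below 0), RNA polymerase I and its factors one of -0.19 (7 of 10), initiation factors one of -0.10 (20 of 35) and ribosome biogenesis factors one of -0.09 (37 of 60). Beside these, 49.9% of all genes tested lay below 0, and 75.3% of the 146 bright genes, with a median of -0.19. The part of probe brightness in the list medians was not tested. No gene of these 5 lists was called by limma, where 2.44% of all genes were; at an unadjusted p under 0.05 they held 0 of 12, 0 of 9, 1 of 10, 2 of 35 and 2 of 60 genes in the order given, against 18.9% of all genes. Fau, which encodes the small-subunit protein S30 and carries no Rps symbol, read 42984, 42975 and 31285 on the ES-type arrays and 27392 and 31081 in the spheres, at -0.40 (limma adjusted p = 0.470).

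Single genes of these lists had larger differences. Eif3i, a subunit of initiation factor eIF3, read 3234, 3971 and 1476 on the ES-type arrays and 857 and 639 in the spheres, at -1.84 (limma adjusted p = 0.114). Nop58, a core protein of the box C/D particles that guide methylation of ribosomal RNA, read 5234, 5351 and 3447 on the ES-type arrays and 1853 and 1655 in the spheres, at -1.39 (limma adjusted p = 0.0748). Both were 2-fold lower in both lines, with no overlap of spheres and ES-type arrays, and neither passed the threshold.

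Among 22 tested kinases and regulators of ribosomal protein synthesis, 11 lay below 0, and limma called 1 of them, against 2.44% of all genes (8 had an unadjusted p under 0.05, against 18.9% of all genes). Myc, a transcription factor that drives ribosome production, fell in the spheres: it read 296, 190 and 194 on the ES-type arrays and 38.2 and 34.8 in the spheres, with a log2 difference of -2.57 ± 0.31 and an adjusted p of 0.0246 in limma, but the call was lost when any 1 of 4 arrays was left out, with a difference of similar size. Without line 21 spheres it was -2.66 (limma adjusted p = 0.0660), without line 42 spheres -2.48 (0.0788), without ES cells without 4OHT -2.32 (0.0872) and without ES cells with 4OHT -2.71 (0.0729). Rps6kb1, the kinase that phosphorylates ribosomal protein S6, read 260, 220 and 265 on the ES-type arrays and 460 and 564 in the spheres, at 1.04 (limma adjusted p = 0.0937). The related Rps6kl1 read 215, 137 and 234 on the ES-type arrays and 426 and 728 in the spheres, at 1.55 (limma adjusted p = 0.101). Both spheres exceeded all ES-type arrays for each kinase.

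**Figure D4:**
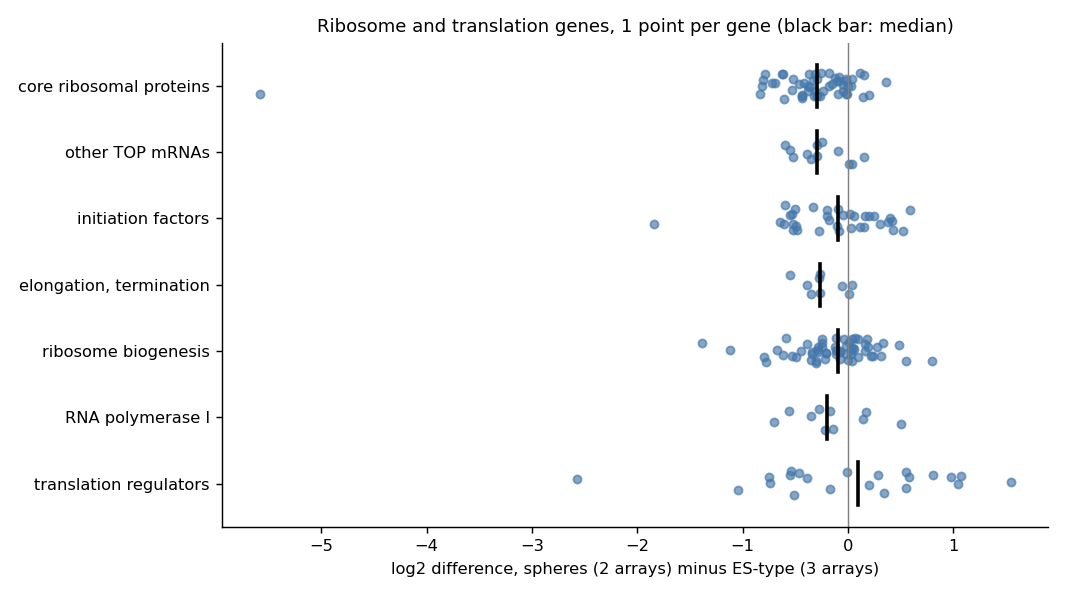
Log2 difference of spheres (2 arrays) from the ES-type arrays (3 arrays) for the core ribosomal protein genes and 6 lists of the translation machinery, with 1 point per gene and a black bar at the median. The core genes (median -0.29) and the other TOP mRNAs (-0.30) sit furthest to the left, and Rpl10, Myc and Eif3i lie apart from their lists.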

How the data were processed

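RNA of the 5 samples was hybridised to one-colour arrays, per the labels' protocols, which name Toray as the maker. The deposited values are probe intensities on a linear scale with a median near 50 on every array; for scanner settings, background correction and normalization, nothing was given in the sources used here. Between 1392 and 2084 of the 22871 probes per array had no value and were not filled in. Names came from the platform annotation, updated through the RefSeq gene table of GRCm38.p6: 16264 probes had 1 symbol and 6607 had none, and of the symbols 12239 were current, 3787 were updated through a synonym and 61 were kept.

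Intensities were taken to log2(value + 1) and the median of the 18884 probes with a value everywhere was subtracted from each array (shifts of -0.08 to 0.06). A fold is on this log2(value + 1) scale and understates differences of dim probes. A gene with several probes was represented by the brightest; Rpl26, Rpl37a and Rpl5 had several, whose log2 differences of spheres from ES-type arrays lay less than 1 apart (for Rpl37a the difference of line 42 from line 21 was 0.16 by one probe and -0.35 by the other). Tested genes needed a value on every array of the comparison and, on 1 or more, a level at or above the 40th percentile. limma 3.58.1 in R 4.3.3 (lmFit, eBayes, Benjamini-Hochberg over all genes tested, threshold 0.05) compared 2 sphere arrays with 3 ES-type arrays, and spheres with each ES-type condition in a fit of all 5 arrays with 1 residual degree of freedom. Single arrays were compared by counting genes that differed 2-fold or more, without a test; as an alternative, limma with the spread of the sphere arrays was run on those against ES cells without 4OHT. The fit was tested on simulated data.

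The members and gene lists were chosen with earlier results of these data known. Genes named with values were all paralogs and their parents, stalk and surface proteins, core genes called or 2-fold apart, and the 5 highest and 5 lowest core genes; other genes named were chosen after their values were seen. Nothing says that the arrays are separate cultures, so p-values reflect only array-to-array spread here, and the number of arrays limits the precision. That spread may be technical. In the comparison of spheres with all ES-type arrays, it also holds differences between the ES-type conditions and between the sphere lines. The alternatives were other pseudocounts, filters, centrings, quantile normalization, probe means, a trended variance and leaving out each array.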

Additional observations from a re-analysis of the deposited data

Results flagged for a closer look

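Rpl39l, the testis-type paralog of Rpl39, went opposite ways in the sphere lines relative to the reverted cells: the log2 difference was -2.54 in line 21 spheres and 2.87 in line 42 spheres, from intensities of 33.7 and 1528 against 208. With 1 array for each line the difference between the lines was not tested.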

How the results depend on the processing

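Of 226 values of group medians and counts under alternative settings, 192 stayed near the main value, that is within 1.5 times for a count and within 1 SD of the sphere lines' medians for a median. Some of the 192 could not move, such as medians and 2-fold counts under a trended variance. Limma counts of 0 that stayed at 0 are also among them, so the total is no measure of robustness. After quantile normalization the median log2 difference of the core genes was -0.052 for the spheres and ES-type arrays, -0.10 when compared with ES cells without 4OHT alone, -0.12 with the 4OHT-treated ES cells and -0.033 for reverted cells against ES cells without 4OHT; the cause was not tested. For ES cells with against without 4OHT, the 488 genes at least 2-fold apart became 311 with a pseudocount of 16, 752 with no filter and 313 with a filter at the 60th percentile, and the core count of 1 became 2 without centring and 2 after quantile normalization. For reverted cells the core count of 5 became 2 after quantile normalization. With limma and the spread of the sphere arrays in place of the 2-fold rule, both single-array comparisons gave 0 core genes and 0 genes in all (147 genes with 4OHT and 327 in reverted cells had an unadjusted p under 0.05). Leaving out each array in turn moved the limma count of spheres against ES-type arrays between 0 and 284, its 2-fold count between 915 and 1965 and its core count to between 2 and 5 without a sphere line. Without a sphere line the core count was 2 to 13 against ES cells without 4OHT (1890 to 2266 of all genes), 2 to 7 against ES cells with 4OHT (2132 to 2702) with a core median of -0.34 to -0.19, and at most 1 against reverted cells (1705 to 2284), where such a rule needs 1 line in place of both. The Rpl39l difference from reverted cells was -2.54 without line 42 and 2.87 without line 21 spheres. Rps4l passed the limma threshold with the adjusted p at 0.0260 after centring on the core genes, as it did without either sphere line. No paired analysis was possible because no 2 groups share 2 or more replicate numbers.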
